A study of Homo sapiens with 12 samples.

Results

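The aldo-keto reductases were followed here as 7 genes, AKR1A1, AKR1B1, AKR1B10, AKR1C1, AKR1C2, AKR1C3 and AKR7A2, chosen by their symbols among the 55242 genes counted by RNA-seq in Hs 578T cells, a TNBC line of the mesenchymal stem-like subtype. Aldo-keto reductases are soluble enzymes that use NADPH to reduce aldehydes and ketones to alcohols, and their substrates include sugars, products of lipid peroxidation, steroids and prostaglandins. Several human members, AKR1B10 and the AKR1C genes among them, are known targets of NRF2, the transcription factor that binds antioxidant response elements in the regulatory regions of detoxification genes. NRF2 itself is kept low by KEAP1 and accumulates under oxidative or electrophilic stress.

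The cells had been transduced with lentiviral vectors for GFP or for exogenous full-length NRF2 and were grown for 8 h in medium with or without Cyss, the disulphide form of cysteine, which gave 4 groups of 3 libraries: GFP with Cyss, GFP without Cyss, NRF2 with Cyss and NRF2 without Cyss. Cells with Cyss received 0.8 mM l-cystine, and both media lacked the cystine of the base medium but held serum, methionine and glutamine. The transduced cells are described as populations, without single clones, and the promoter that drives NRF2 is not given in the sources used here. The comparisons ask how exogenous NRF2 and the removal of Cyss change each reductase, and whether the response to Cyss differs between GFP and NRF2 cells.

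Each library held between 27250993 and 44596870 reads on genes (median 32857536). Nothing in the labels says that the libraries of a group came from separate cultures, so the p-values measure the spread between these samples, which may be technical. NFE2L2, the gene of NRF2, measured 3762 ± 102 normalized counts in GFP cells with Cyss, 4580 ± 77.3 without Cyss, 6719 ± 192 in NRF2 cells with Cyss and 7991 ± 522 without Cyss (mean ± SD, n = 3), so every NRF2 library lay above every GFP library. A normalized count is a raw count divided by a library's TMM scaling factor, and it joins endogenous and exogenous NFE2L2 transcripts. The labels call the line epithelial. Mesenchymal markers were abundant (VIM at 142640 to 167990 normalized counts), and among 10 epithelial markers EPCAM, CLDN3, CLDN7, KRT19 and ESRP1 reached 0 in at least 1 library, whereas KRT8 (151 to 233) and KRT18 (773 to 1473) made up most of the list. The summed epithelial list ranged from 1130 to 1269 in GFP cells with Cyss, from 1350 to 1705 without Cyss, from 949 to 1061 in NRF2 cells with Cyss and from 1347 to 1595 without Cyss. The part of these markers in the results on the reductases was not tested.

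Compared per kilobase of canonical mRNA, AKR1B1 was the most abundant member in all 4 groups. AKR1B1 is aldose reductase, which turns glucose into sorbitol in the polyol pathway, and it had 7527 ± 401 normalized counts per kb in GFP cells with Cyss. AKR1A1, the general aldehyde reductase, followed at 1440 ± 83.2 and AKR7A2, known for reducing aflatoxin dialdehyde and succinic semialdehyde, at 1089 ± 12.3. AKR1C3, which makes testosterone from androstenedione and converts prostaglandins, stood at 356 ± 19.2. AKR1C1, which inactivates progesterone, stood at 183 ± 3.37. AKR1B10, an efficient retinal and aliphatic aldehyde reductase, stood at 64.8 ± 3.26, and AKR1C2, which inactivates dihydrotestosterone, at 9.11 ± 1.39 (all mean ± SD, n = 3). Levels per kb depend on the transcript chosen, since AKR1C1 has a canonical mRNA of 6543 bases and AKR1C3 one of 1186 bases. Per kb of all annotated exon bases, part of the order turned in GFP cells with Cyss. AKR1C1 (137) then stood above AKR1C3 (108), and AKR7A2 (832) above AKR1A1 (649).

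Positions are given on GRCh37, from GENCODE 44 models. AKR1B1 (chr7:134127108-134144036, minus strand) and AKR1B10 (chr7:134212319-134226164, plus strand) are neighbours on chromosome 7. AKR1C1 (chr10:5005445-5025475, plus strand), AKR1C2 (chr10:5029967-5060223, minus strand) and AKR1C3 (chr10:5077546-5149878, plus strand) form a cluster on chromosome 10. AKR1A1 (chr1:46016215-46035721, plus strand) and AKR7A2 (chr1:19630459-19638638, minus strand) lie apart on chromosome 1. All 7 are protein-coding, and only AKR1C3 shares exon bases with another annotated gene, RP11-499O7.4 on the same strand (2.15% of its exon bases).

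How far reads can be given to 1 member differs between them. Of all 75-base windows of the canonical mRNA, 36% of those of AKR1C2 also occurred in a transcript of another gene, mostly AKR1C1, and 16.8% of those of AKR1C1 occurred elsewhere, mostly in AKR1C2. The share was 12.3% for AKR1C3, 7.31% for AKR1B10 (AKR1B15 and the pseudogene AKR1B10P1), 4.28% for AKR7A2 (AKR7L and AKR7A3) and 0 for AKR1A1 and AKR1B1. With 50-base windows the shares were 47.3% for AKR1C2, 22.7% for AKR1C1, 18.6% for AKR1C3, 18.0% for AKR1B10, 8.01% for AKR7A2 and 4.95% for AKR1B1, which then matched its processed pseudogenes. The read length is not given in the sources used here. The authors counted reads with a single placement, so the levels of AKR1C1 and AKR1C2 and the division of reads between them are uncertain.

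**Figure D1:**
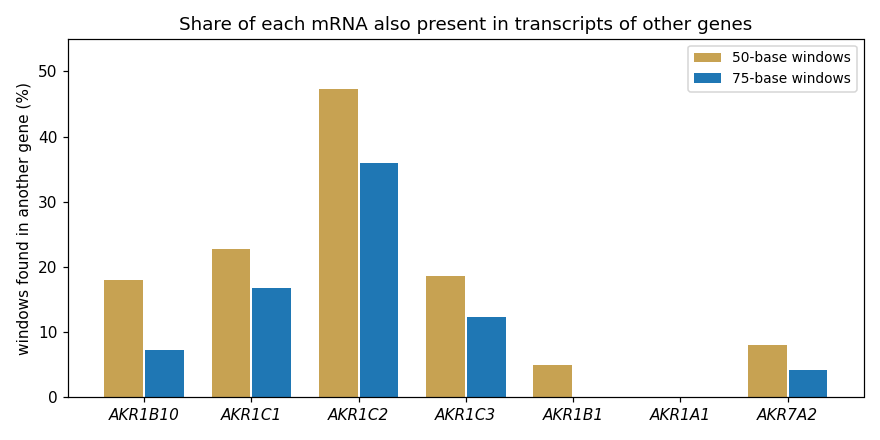
Percent of the 50-base and 75-base windows of each member's canonical mRNA (y axis) that also occur in transcripts of other genes, for the 7 members (x axis). AKR1C2 has the highest bars, at 47.3% and 36%, and AKR1A1 has none.

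The likeness of the AKR1C genes extends to the sequence before their start sites. The 250 bases before the start are printed here, 5′ to 3′ on the strand of the gene, for AKR1C1 (chr10:4963165-4963414, plus strand), AKR1C2 (chr10:5003858-5004107, minus strand) and AKR1C3 (chr10:5048531-5048780, plus strand, the first of its 2 listed starts), because these 3 clustered genes were all higher in NRF2 cells with Cyss, and for AKR7A2 (chr1:19312147-19312396, minus strand, the first of 2), because it was not called there. Sequences and positions are those of RefSeq on GRCh38.p14, which is not the build of the counts. Capitals mark matches on either strand to TGANNNNGC, the shorter form of the antioxidant response element core TGACNNNGC.
AKR1C1: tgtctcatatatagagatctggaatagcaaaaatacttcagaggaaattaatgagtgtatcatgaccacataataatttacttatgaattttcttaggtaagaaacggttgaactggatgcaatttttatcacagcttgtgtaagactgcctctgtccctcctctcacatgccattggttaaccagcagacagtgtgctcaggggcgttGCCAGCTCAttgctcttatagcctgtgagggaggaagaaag
AKR1C2: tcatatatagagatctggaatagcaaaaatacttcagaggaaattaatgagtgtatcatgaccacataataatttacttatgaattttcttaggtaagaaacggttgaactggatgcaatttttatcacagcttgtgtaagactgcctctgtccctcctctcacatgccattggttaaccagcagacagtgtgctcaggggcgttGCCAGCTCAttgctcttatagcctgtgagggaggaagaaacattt
AKR1C3: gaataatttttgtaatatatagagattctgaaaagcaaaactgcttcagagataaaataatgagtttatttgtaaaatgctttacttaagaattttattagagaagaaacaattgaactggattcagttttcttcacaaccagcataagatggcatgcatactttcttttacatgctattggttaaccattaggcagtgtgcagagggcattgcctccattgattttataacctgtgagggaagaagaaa
AKR7A2: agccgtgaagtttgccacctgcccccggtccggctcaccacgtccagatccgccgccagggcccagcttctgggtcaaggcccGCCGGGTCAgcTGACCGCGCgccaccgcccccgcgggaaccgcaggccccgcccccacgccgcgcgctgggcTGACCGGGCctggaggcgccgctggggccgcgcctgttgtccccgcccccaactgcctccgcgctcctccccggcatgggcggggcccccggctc
Over the windows from 250 bases before to 50 bases after the start, AKR1C1 and AKR1C2 were identical at 288 of 292 aligned bases (98.6%), whereas AKR1C3 matched AKR1C1 at 80.9% and AKR1C2 at 79.7% of the aligned bases. AKR1C1 and AKR1C2 each held 1 match to TGANNNNGC, on the strand opposite to the gene, 41 and 45 bases before the start. Neither held TGACNNNGC. AKR7A2 held 3 matches to TGACNNNGC, and each of them is also a match to TGANNNNGC. The windows of AKR1A1, AKR1B1 and AKR1C3 held no match to either. Of these, AKR1A1 was also not called in NRF2 against GFP cells with Cyss, while AKR1B1 and AKR1C3 were called higher. The promoter of AKR1B10 was not analysed here. Of the 35116 promoters in the table, 13.3% held TGACNNNGC and 41.8% held TGANNNNGC, so the letters alone are common and describe these windows only. Regulatory elements farther from the start were not examined.

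Exogenous NRF2 raised 5 of the 7 members in medium with Cyss, and AKR1C2, AKR1B10 and AKR1C1 had the highest log2FC. AKR1B10 measured 108, 107 and 98.8 normalized counts in the GFP libraries with Cyss and 273, 288 and 291 in the NRF2 libraries with Cyss. The groups did not overlap, and the difference was 2.71-fold (log2FC 1.44 ± 0.09 SE, adjusted p = 2.70e-08). AKR1C1 measured 1215, 1207 and 1173 in GFP cells and 3059, 2980 and 2977 in NRF2 cells. The spread between replicates was small beside this 2.51-fold rise (log2FC 1.33 ± 0.04 SE, adjusted p = 2.09e-12). AKR1C2 measured 33.5, 24.6 and 29.7 in GFP cells and 122, 138 and 137 in NRF2 cells. This was the largest fold among the members, 4.56-fold (log2FC 2.19 ± 0.15 SE, adjusted p = 8.12e-08), on 33 to 38 reads per GFP library. In bulk RNA, a change in the share of cells that express a gene and a change in RNA per cell cannot be told apart.

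AKR1C3 and AKR1B1 rose less. AKR1C3 measured 398, 442 and 428 in GFP cells with Cyss and 603, 594 and 546 in NRF2 cells, without overlap, and was 1.37-fold higher (log2FC 0.46 ± 0.06 SE, adjusted p = 6.48e-04). AKR1B1 measured 9614, 10582 and 10535 against 15046, 14921 and 15687 and was 1.48-fold higher (log2FC 0.57 ± 0.04 SE, adjusted p = 1.59e-07). AKR7A2 lay at 1462, 1494 and 1486 against 1709, 1652 and 1679. These groups did not overlap, but the log2FC of 0.18 (adjusted p = 0.0233) was under the fold threshold. AKR1A1 overlapped, at 1895, 2119 and 2065 against 2144, 2026 and 2276 (log2FC 0.08, adjusted p = 0.398). A gene was called when its adjusted p in edgeR's quasi-likelihood test was under 0.1 and its log2FC exceeded 0.32 in size, and by this rule 1.36% of all tested genes were called higher and 0.201% lower. The median log2FC was 0.57 over the 7 members and -0.0039 over all genes.

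**Figure D2:**
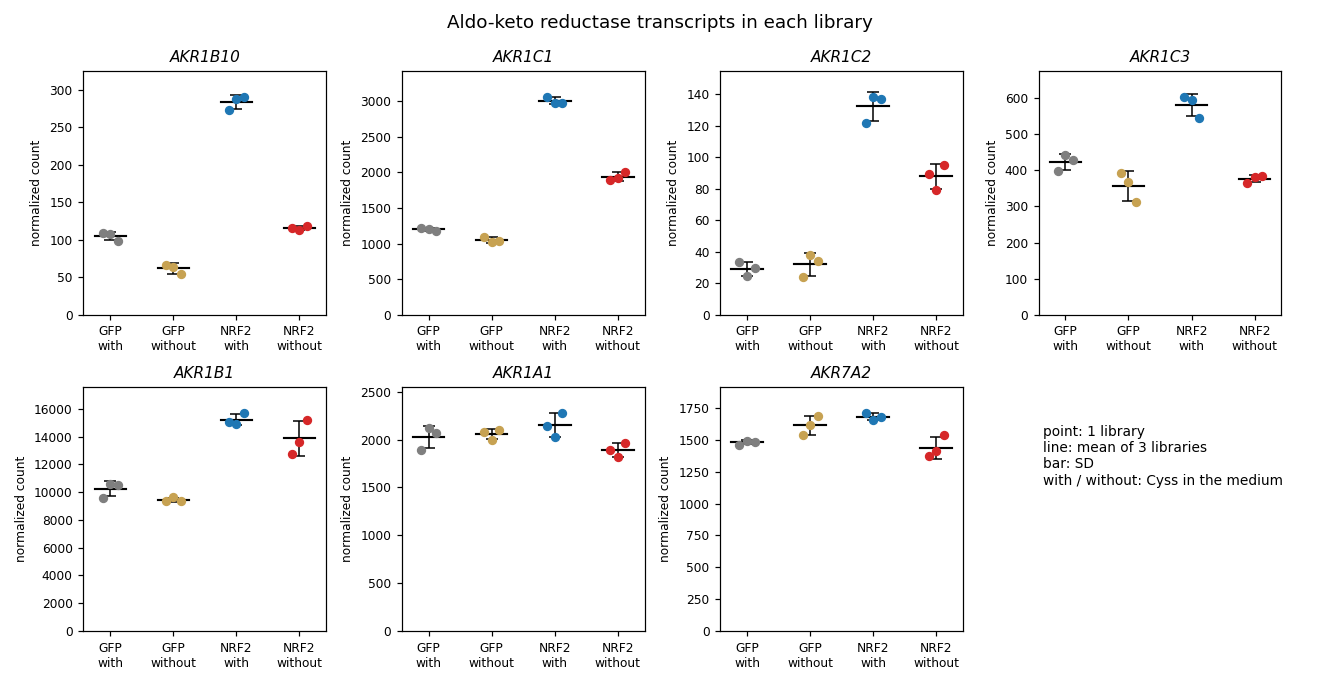
Normalized counts (y axis, from 0) of the 7 members in the 4 groups (x axis), with a point per library, a line at the mean and a bar for the SD of 3 libraries. AKR1B10 and AKR1C1 stand highest in NRF2 cells with Cyss (273 to 291 and 2977 to 3059) and lowest in GFP cells without Cyss, while AKR1A1 lies between 1818 and 2276 throughout.

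Without Cyss, the same contrast between NRF2 and GFP cells called 4 members higher and none lower, against 5.98% of all tested genes called higher and 4.09% lower. AKR1B10 lay at 67.0, 64.4 and 53.9 normalized counts in GFP cells and at 116, 113 and 119 in NRF2 cells, a 1.86-fold difference (log2FC 0.89 ± 0.13 SE, adjusted p = 9.70e-04). AKR1C1 lay at 1092, 1021 and 1034 against 1892, 1914 and 2008, a 1.83-fold difference (log2FC 0.87 ± 0.05 SE, adjusted p = 2.78e-06). In both genes all NRF2 libraries were above all GFP libraries. AKR1C2 lay at 24, 37.9 and 34.1 against 89.3, 79.4 and 94.9 and was 2.74-fold higher (log2FC 1.45 ± 0.18 SE, adjusted p = 4.23e-04). AKR1B1 lay at 9363, 9630 and 9353 against 12781, 13599 and 15211 and was 1.45-fold higher (log2FC 0.54 ± 0.06 SE, adjusted p = 2.84e-04).

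AKR1C3 differed from the other AKR1C genes in this medium. Its GFP libraries measured 392, 368 and 311 and its NRF2 libraries 365, 382 and 384, which overlap, and the log2FC was 0.06 ± 0.09 (SE, adjusted p = 0.650). Without the third GFP library the sign turned, to -0.02. AKR1A1 (log2FC -0.14, adjusted p = 0.0721) and AKR7A2 (log2FC -0.18, adjusted p = 0.0488) were lower in NRF2 cells by less than the fold threshold, and their groups did not overlap. AKR1A1 measured 2079, 1998 and 2100 in GFP cells and 1889, 1818 and 1964 in NRF2 cells. AKR7A2 measured 1541, 1615 and 1686 in GFP cells and 1370, 1410 and 1534 in NRF2 cells. The comparison shares its libraries with those on the removal of Cyss, so these values are not independent of the ones that follow.

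Removal of Cyss from GFP cells called 1 member, AKR1B10, which fell 1.70-fold (log2FC -0.76 ± 0.13 SE, adjusted p = 0.00432), against 0.533% of all tested genes called lower and 1.57% called higher. All 3 AKR1B10 libraries without Cyss, at 53.9 to 67.0, lay below those with Cyss, at 98.8 to 108. AKR1C1 did not overlap either, yet its log2FC of -0.19 ± 0.05 (SE, adjusted p = 0.050) was under the fold threshold. AKR1C3 had a log2FC of -0.24 ± 0.08 (SE, adjusted p = 0.142), and without the first GFP library without Cyss it was called at -0.32 (adjusted p = 0.0812). AKR1C2 overlapped, with a log2FC of 0.12 ± 0.22 (SE, adjusted p = 0.807), and the sign turned to -0.01 without the second library without Cyss. AKR1B1 (-0.12, adjusted p = 0.146), AKR1A1 (0.02, adjusted p = 0.854) and AKR7A2 (0.12, adjusted p = 0.180) were not called. The sign for AKR1A1 turned to -0.02 without the first library with Cyss. The 3 members outside AKR1B10 and the AKR1C genes had a median log2FC of 0.02, and those 4 genes one of -0.22.

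In NRF2 cells the removal of Cyss lowered all 4 genes of AKR1B10 and the AKR1C group and called none of the other 3 members, against 5.14% of all tested genes called lower and 6.81% higher. AKR1B10 fell from 273, 288 and 291 to 116, 113 and 119, which is 2.45-fold (log2FC -1.29 ± 0.09 SE, adjusted p = 1.41e-07). AKR1C1 fell from 2977 to 3059 with Cyss to 1892 to 2008 without, which is 1.55-fold (log2FC -0.63 ± 0.05 SE, adjusted p = 1.76e-07). AKR1C3 fell 1.54-fold (log2FC -0.62 ± 0.07 SE, adjusted p = 1.32e-05) and AKR1C2 fell 1.51-fold (log2FC -0.59 ± 0.12 SE, adjusted p = 0.00305). No library without Cyss reached one with Cyss in any of these 4 genes. How many of all tested genes separate in this way was not counted, here or in the other comparisons. In edgeR's test 5887 of the 17266 genes had an unadjusted p under 0.05 here. AKR7A2 (log2FC -0.23, adjusted p = 0.00767) and AKR1A1 (log2FC -0.19, adjusted p = 0.0235) did not overlap but were under the fold threshold, and AKR1B1 overlapped (log2FC -0.14, adjusted p = 0.101). The median log2FC was -0.63 over AKR1B10 and the AKR1C genes, -0.19 over the other 3 members and -0.012 over all genes.

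**Figure D3:**
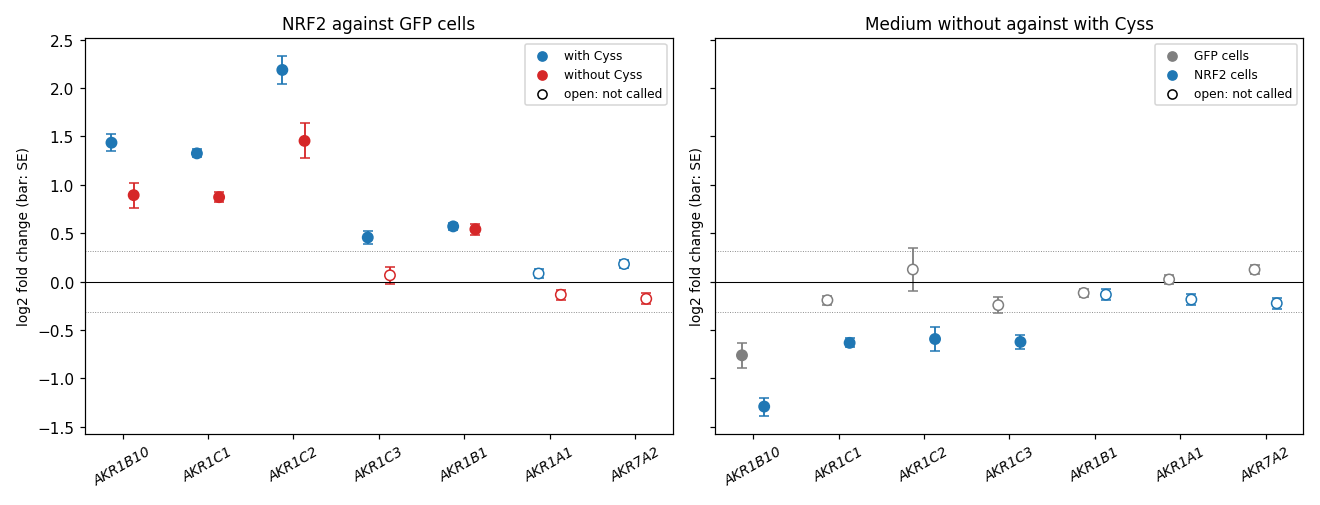
Fitted log2 fold changes (y axis, bars are SE) of the 7 members (x axis) for NRF2 against GFP cells in each medium (left) and for medium without against with Cyss in each cell type (right), with filled points for called genes and dotted lines at 0.32 and -0.32. AKR1C2 is the highest point on the left at 2.19, and AKR1B10 in NRF2 cells is the lowest on the right at -1.29.

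The difference between the 2 responses to Cyss was tested as an interaction over all 12 libraries, called at an adjusted p under 0.1 without a fold threshold. It was negative and called for 6 of the 7 members, against 6.13% of all tested genes called negative and 8.97% positive, so the response of these transcripts to the removal of Cyss was more negative in NRF2 than in GFP cells. The same test compares the effect of NRF2 between media. That effect was lower without than with Cyss for AKR1B10, AKR1C1, AKR1C2 and AKR1C3. It was positive and called in both media for AKR1B10, AKR1C1 and AKR1C2. For AKR1C3 it was called with Cyss (0.46) but not without (0.06 ± 0.09 SE), where leaving out 1 library turned its sign. For AKR1A1 (0.08 and -0.14) and AKR7A2 (0.18 and -0.18) the sign differed between media with and without Cyss, and none of these values was called. The response of AKR1C1 differed by -0.44 ± 0.06 (log2, SE, adjusted p = 6.71e-04) and that of AKR7A2 by -0.35 ± 0.07 (adjusted p = 0.00489), and neither call was lost when any of the 12 libraries was left out. AKR7A2 had opposite signs in the cell types, 0.12 in GFP and -0.23 in NRF2 cells, and neither response was called alone. AKR1B10 differed by -0.53 ± 0.15 (adjusted p = 0.0330), a call lost without the first GFP library without Cyss (-0.46, adjusted p = 0.118). AKR1C3 differed by -0.38 ± 0.11 (adjusted p = 0.0387), a call lost without the first (-0.30) or the second (-0.36) GFP library without Cyss.

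The calls for AKR1C2 and AKR1A1 were less stable. AKR1C2 differed by -0.72 ± 0.24 (adjusted p = 0.0722), which was lost on leaving out 7 of the 12 libraries in turn, with values from -0.90 to -0.59. The 7 libraries were the second and the third of GFP with Cyss, of GFP without Cyss and of NRF2 with Cyss, and the second of NRF2 without Cyss. AKR1A1 differed by -0.21 ± 0.07 (adjusted p = 0.0894), which was lost on leaving out 9 of the 12, with values from -0.25 to -0.16. It was kept only without the second library of GFP with Cyss, the second of NRF2 with Cyss or the third of NRF2 without Cyss. AKR1B1 showed no interaction (-0.02 ± 0.08, adjusted p = 0.913), and NFE2L2 had a value of -0.03 ± 0.07 (adjusted p = 0.789).

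The order of the group means was clear for some members and not for others. For AKR1B10 the means were 284 ± 9.57 in NRF2 cells with Cyss, 116 ± 2.64 without Cyss, 105 ± 5.28 in GFP cells with Cyss and 61.7 ± 6.97 without Cyss, and no neighbours in this order overlapped. AKR1C1 had the same order without overlap, at 3005 ± 46.6, 1938 ± 61.5, 1198 ± 22.1 and 1049 ± 37.6. AKR1C2 followed it for the NRF2 groups, at 132 ± 9.17 and 87.9 ± 7.88, while its GFP groups overlapped at 29.3 ± 4.47 with and 32 ± 7.19 without Cyss. AKR1C3 had a different order, with 581 ± 30.7 in NRF2 cells with Cyss, then 423 ± 22.7 in GFP cells with Cyss, and overlapping values of 377 ± 10.6 in NRF2 and 357 ± 41.6 in GFP cells without Cyss. AKR1B1 separated by cell type only, with 15218 ± 411 and 13864 ± 1236 in NRF2 cells and 10244 ± 546 and 9449 ± 157 in GFP cells, with and without Cyss. All neighbours in the order of AKR1A1 overlapped, between 2149 ± 125 in NRF2 cells with Cyss and 1890 ± 73.3 without. AKR7A2 ran from 1680 ± 28.3 in NRF2 cells with Cyss to 1438 ± 85.6 without, and of its neighbours only the GFP groups, 1614 ± 72.6 without and 1481 ± 16.7 with Cyss, did not overlap.

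To compare members free of the scaling between libraries, each was divided by AKR1A1 in the same library (1 normalized count was added to both). With 3 against 3 libraries the exact two-sided permutation test cannot give a p under 0.1, and over the 28 tests of this kind the smallest adjusted p (Benjamini-Hochberg) was 0.14, so none could pass and only separation is described. The ratios of AKR1B10, AKR1C1 and AKR1C3 did not overlap in any of the 4 comparisons. How many of all genes separate in their ratio to AKR1A1 was not counted. AKR1B10 to AKR1A1 was 1.34 higher on the log2 scale in NRF2 than in GFP cells with Cyss and 1.03 higher without Cyss, and the removal of Cyss changed it by -0.78 in GFP cells and -1.10 in NRF2 cells. The corresponding differences for AKR1C1 were 1.24, 1.01, -0.22 and -0.45, and for AKR1C3 0.37, 0.21, -0.27 and -0.44 (exact permutation p = 0.1 for each). AKR1A1 itself did not overlap and had a negative log2FC for NRF2 over GFP in medium lacking Cyss (-0.14) and for the removal of Cyss from NRF2 cells (-0.19), so a ratio in these comparisons holds the movement of both genes. For NRF2 against GFP cells without Cyss the normalized counts of AKR1C3 overlapped (log2FC 0.06) although its ratio did not. AKR1C2 separated in 3 of the 4 comparisons and overlapped on the removal of Cyss from GFP cells. AKR1B1 separated in 3, with 0.49 (with Cyss) and 0.67 (without Cyss) for NRF2 against GFP cells and -0.14 for the removal of Cyss from GFP cells. AKR7A2 to AKR1A1 overlapped in all 4, with differences from -0.04 to 0.10 (exact permutation p = 0.2 to 0.5).

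**Figure D4:**
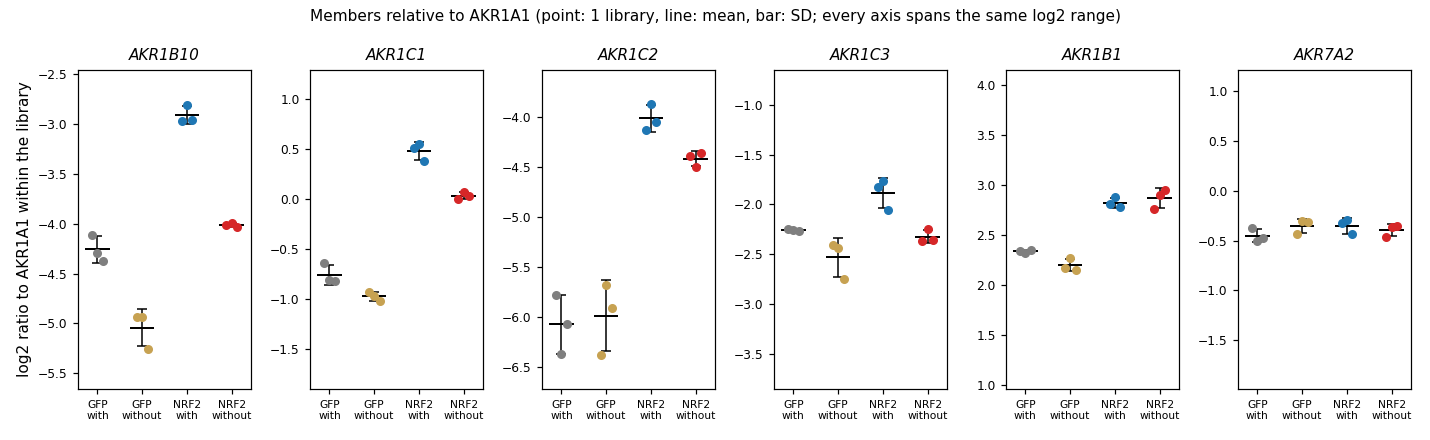
Log2 ratio of 6 members to AKR1A1 within each library (y axis) in the 4 groups (x axis), with a point per library, a line at the mean and a bar for the SD of 3 libraries. The ratio of AKR7A2 stays at -0.45 to -0.35 in the group means, whereas that of AKR1B10 runs from -5.04 to -2.91.

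Within the AKR1C pair that shares most sequence, the ratio of AKR1C1 to AKR1C2 differed between NRF2 and GFP cells by -0.82 on the log2 scale with Cyss and by -0.56 without Cyss, without overlap in either medium (exact two-sided permutation p = 0.1 for both, adjusted p = 0.14). It overlapped between media within GFP cells and within NRF2 cells. With 10 normalized counts added in place of 1, the difference with Cyss was -0.54. Reads shared by both genes were not counted for either, and the part of this in the ratio was not tested.

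Of the other aldo-keto reductases and their pseudogenes, 18 of 19 listed symbols were in the tables and 11 passed the filter on low counts. AKR1B15, a close copy of AKR1B10 in the same cluster, was called in all 4 comparisons with the directions of AKR1B10, at log2FC 1.37 with Cyss and 1.05 without for NRF2 against GFP cells, and -1.05 and -1.36 for the removal of Cyss in GFP and NRF2 cells. It held 8.63 ± 0.82 normalized counts in GFP cells without Cyss and 46.5 ± 6.42 in NRF2 cells with Cyss, is named here after its values were seen, and shares sequence with AKR1B10. Its call in GFP cells was lost without any 1 of the 6 libraries and at an adjusted p under 0.05. On the removal of Cyss, DESeq2's Wald test called 0 of this list lower in GFP cells and 0 in NRF2 cells. In NRF2 cells with Cyss, 5 of the 11 were higher and 0 lower, against 1.36% of all tested genes called higher. These were AKR1B15, KCNAB2, a potassium channel β subunit (0.48 ± 0.10 SE, adjusted p = 0.0182), and the AKR1B1 pseudogenes AKR1B1P1 (0.41 ± 0.12 SE, adjusted p = 0.0808), AKR1B1P2 (0.57 ± 0.05 SE, adjusted p = 5.43e-06) and AKR1B1P7 (0.42 ± 0.10 SE, adjusted p = 0.0267). Without the third NRF2 library with Cyss only 2 of these calls were left. AKR1B1P2, at 610 ± 19.3 in GFP and 908 ± 23.4 in NRF2 cells with Cyss, changed by the same log2 amount to 2 decimals as AKR1B1 (0.57), with which it shares 50-base windows. Without Cyss 6 of the 11 were higher, against 5.98% of all tested genes, with KCNAB1 added (0.65 ± 0.19 SE, adjusted p = 0.0306). In that medium the KCNAB1 call was lost without the second GFP library (0.62, adjusted p = 0.116) and the KCNAB2 call without the first (0.36, adjusted p = 0.102). Besides AKR1B15, the removal of Cyss called only KCNAB3, which was higher in NRF2 cells (0.52 ± 0.19 SE, adjusted p = 0.0621). No gene of the 11 was called higher there by DESeq2's Wald test, at an adjusted p under 0.05, or without the first or the third NRF2 library with Cyss or the second without Cyss. The interaction called 0 of the 11 by edgeR, with the lowest adjusted p for KCNAB3 (0.214), and 0 by DESeq2's Wald test, but 1 by edgeR without the first GFP library without Cyss.

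Among other enzymes of carbonyl and aldehyde metabolism, 33 genes were listed and 27 tested. In NRF2 against GFP cells with Cyss 1 of the 27 was higher, against 1.36% of all tested genes, PTGR1, which reduces enones (0.40 ± 0.06 SE, adjusted p = 0.00131, from 438 ± 7.83 to 580 ± 36.2 normalized counts). The list had a median log2FC of 0.07 in this comparison. In NRF2 cells the removal of Cyss lowered 6 of the 27 and raised 2, against 5.14% of all tested genes called lower and 6.81% higher. The carbonyl reductases CBR1 (-0.55 ± 0.06 SE, adjusted p = 2.09e-05) and CBR3 (-0.60 ± 0.08 SE, adjusted p = 1.20e-04), the xylulose reductase DCXR (-0.35 ± 0.06 SE, adjusted p = 7.92e-04), the fatty aldehyde dehydrogenase ALDH3A2 (-0.68 ± 0.07 SE, adjusted p = 2.87e-06) and the succinic semialdehyde dehydrogenase ALDH5A1 (-0.61 ± 0.12 SE, adjusted p = 0.00216) fell, as did DHRS13. ALDH1A3, a retinal dehydrogenase, rose (0.78 ± 0.10 SE, adjusted p = 3.36e-05), and ALDH1L2, a mitochondrial folate enzyme, rose from 3786 ± 119 to 6399 ± 273 (0.76 ± 0.05 SE, adjusted p = 4.73e-08). In GFP cells ALDH1L2 also rose (0.70 ± 0.04 SE, adjusted p = 3.44e-07) and ALDH3A2 fell (-0.33 ± 0.06 SE, adjusted p = 0.00550), while 0 others of the list were called. Of all tested genes, the removal of Cyss from GFP cells called 1.57% higher and 0.533% lower. The call for ALDH3A2 in GFP cells was lost without the third library with Cyss (-0.32) or the third without Cyss (-0.28), and that for DCXR without the first NRF2 library without Cyss (-0.30).

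For NRF2 against GFP cells without Cyss, 1 of these 27 genes was higher, ALDH1A3 (0.54 ± 0.10 SE, adjusted p = 0.00314), and 2 were lower, CBR3 (-0.43 ± 0.10 SE, adjusted p = 0.00918) and DHRS2. Over all tested genes, 5.98% were called higher and 4.09% lower in this comparison. The interaction was negative and called for 10 of the 27 and positive for 1, ALDH1A3 (0.65 ± 0.13 SE, adjusted p = 0.00561), against 6.13% of all tested genes called negative and 8.97% positive. Among the 10 were CBR3 (-0.50 ± 0.12 SE, adjusted p = 0.0114), DCXR (-0.36 ± 0.08 SE, adjusted p = 0.0125), ALDH3A2 (-0.36 ± 0.09 SE, adjusted p = 0.0173) and CBR1 (-0.26 ± 0.09 SE, adjusted p = 0.0691), whose call was lost on leaving out 8 of the 12 libraries in turn. Of the 10 negative calls 5 were left without the first library of GFP with Cyss or the second of GFP without Cyss, and 6 without the first of GFP without Cyss. The list had a median interaction of -0.13, against -0.38 over the 7 members and -0.013 over all genes.

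Enzymes that share steroid or prostaglandin substrates with the AKR1C genes included the cyclooxygenases, whose values are given first. Of 30 listed genes 21 were tested. The interaction was positive and called for 2 of the 21, PTGS1 and PTGS2, against 8.97% of all tested genes. It was negative and called for 0, against 6.13%, although 15 of the 21 values were negative (median -0.08). This count was 1 with scaling by library size alone or with no filter on low counts. Leaving out the first library of GFP with Cyss or the third of GFP without Cyss also gave 1. So did leaving out the first or the third of NRF2 without Cyss. Removal of Cyss called 1 higher and 1 lower in GFP cells, against 1.57% and 0.533% of all tested genes. In NRF2 cells it called 2 higher and 2 lower, against 6.81% and 5.14%. PTGS2, the inducible cyclooxygenase, measured 277, 227 and 217 in GFP cells with Cyss and 353, 482 and 780 without (log2FC 1.16 ± 0.22 SE, adjusted p = 0.00990). In NRF2 cells it measured 229, 193 and 172 with Cyss and 1461, 1706 and 1947 without (log2FC 3.11 ± 0.11 SE, adjusted p = 1.92e-10). The interaction was 1.95 ± 0.29 (SE, adjusted p = 7.84e-04), opposite in sign to that of the AKR1C genes. PTGS1, the constitutive form, rose without Cyss in NRF2 cells from 128 ± 14.1 to 225 ± 10.3 (log2FC 0.81 ± 0.11 SE, adjusted p = 5.87e-05), with an interaction of 0.83 ± 0.14 (SE, adjusted p = 0.00152). Thromboxane synthase, TBXAS1, fell without Cyss in GFP cells (-0.40 ± 0.11 SE, adjusted p = 0.0646) and in NRF2 cells (-0.47 ± 0.12 SE, adjusted p = 0.0130), and HSD17B7 fell in NRF2 cells (-0.42 ± 0.10 SE, adjusted p = 0.00651). The TBXAS1 call in GFP cells was lost without the second or the third library with Cyss or any library without Cyss (-0.42 to -0.37), and the HSD17B7 call without the third NRF2 library with Cyss (-0.31). In NRF2 against GFP cells with Cyss, 1 of the 21 was called higher and 0 lower, against 1.36% and 0.201% of all tested genes. This was HSD11B1, which missed the mean of 50 normalized counts for printed values. DESeq2's Wald test called 0 of the list higher with Cyss. Without Cyss 3 were higher and 1 lower, against 5.98% and 4.09%. HSD11B1, PTGS1 (0.82 ± 0.10 SE, adjusted p = 3.81e-04) and PTGS2 (1.66 ± 0.20 SE, adjusted p = 3.79e-04) were higher, and HSD17B6 was lower (-0.77 ± 0.17 SE, adjusted p = 0.00800).

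Some members varied together across the 12 libraries. Log2 normalized counts of AKR1C1 had a Pearson r of 0.953 with AKR1C2, 0.956 with AKR1B1 and 0.934 with AKR1B10, and AKR1B10 had 0.914 with AKR1C3, while AKR1A1 and AKR7A2 had 0.743 with each other. AKR1A1 had 0.170 with AKR1C1 and 0.484 with AKR1C3, and AKR7A2 had 0.313 with AKR1B10 and 0.452 with AKR1C3. Within the AKR1C genes, AKR1C2 had 0.579 with AKR1C3. These describe 4 groups of 3 libraries and not 12 separate conditions, and the members of a library share its scaling. Among the 13799 genes that reached a group mean of 50 normalized counts, those most like AKR1B10 were RP11-443P15.2 (r = 0.971), PDE7A (0.965), KCNE4 (0.962), GCLC (0.960) and TNIP3 (0.951). Those most like AKR1C1 were F2RL2 (0.986), BRINP1 (0.982), GCLC (0.977), AKR1B1P2 (0.975) and EPHX1 (0.973). GCLC, the catalytic subunit of the ligase that starts glutathione synthesis, was on both lists and measured 1715 in GFP cells with Cyss, 1537 without, 2408 in NRF2 cells with Cyss and 1950 without (group means of normalized counts).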

How the data were processed

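RNA was sequenced single end, and per the labels the authors mapped the reads to hg19 with TopHat2 2.1.0 and counted them on exons with HTSeq 0.11.2, ignoring strand. The authors deposited raw counts for 55765 gene symbols in each of 12 libraries. The version of the annotation is not given in the sources used here. Reads given to no gene (15.9 to 17.1% per library) were left out, as were 523 genes named as rRNA, which the study's methods describe as removed.

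The 6 libraries of each comparison, or all 12 for the interaction, were scaled by TMM after a filter for a group mean of 10 or more normalized counts, and tested with edgeR 4.0.16 in R 4.3.3 (quasi-likelihood test, Benjamini-Hochberg adjustment over all genes tested, 17266 to 17674). A gene was called at an adjusted p under 0.1 and a log2FC over 0.32 in size, the interaction at an adjusted p under 0.1. Printed per-library values were scaled by 1 TMM over all 12 libraries. Ratios were tested with scipy 1.17.1 by exact permutation, and plots were drawn with matplotlib 3.10.9 in Python 3.11.15. Errors cover the spread between libraries. Replicate pairs differed by more than sampling noise (chi-square per degree of freedom 2.22 to 13). The procedure was tested on simulated data.

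The members and lists were chosen with earlier results of these data known. From the lists, genes called in any of the 4 comparisons were named with values where 1 of the groups compared had a mean of 50 normalized counts or more, and others only to explain a count. Genes most like AKR1B10 and AKR1C1 were the 5 with the highest Pearson r. Alternatives were DESeq2 1.42.0 (size factors, Wald test), library size only, edgeR's filterByExpr, no filter, a joint fit of all 12 libraries, a replicate block, stricter or looser thresholds, rRNA genes kept, other pseudocounts and leaving out each library.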

Additional observations from a re-analysis of the deposited data

Results flagged for a closer look

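The response to the removal of Cyss differed between NRF2 and GFP cells for 6 members by the test of the difference itself (edgeR's quasi-likelihood interaction over 12 libraries, adjusted p under 0.1). NRF2 minus GFP, the differences were -0.53 for AKR1B10, -0.44 for AKR1C1, -0.72 for AKR1C2, -0.38 for AKR1C3, -0.35 for AKR7A2 and -0.21 for AKR1A1 on the log2 scale. Over all genes tested, 6.13% were called negative, and no cause was tested.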

How the results depend on the processing

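The called responses of the members in the 4 comparisons kept their direction and their call under every alternative run, apart from those named here and from AKR1C2 in DESeq2's Wald test, which gave no adjusted p for AKR1C2 in GFP cells without against with Cyss, in NRF2 against GFP cells with Cyss or in the interaction. Values recomputed for the members were log2FC, counts of members called, and ratios. Of these, 936 stayed the same, 22 lost a call, 7 gained one, 5 reversed and 7 moved. For a log2FC, the same meant an unchanged direction and call. For a count it allowed some change, and for a ratio a shift below the SD within groups. With no fold threshold, AKR1C1 was also called in GFP cells (-0.19), AKR1A1 (-0.19) and AKR7A2 (-0.23) in NRF2 cells without against with Cyss, AKR7A2 (0.18) in NRF2 against GFP cells with Cyss, and AKR1A1 (-0.14) and AKR7A2 (-0.18) without Cyss, so that 2 members were lower in GFP cells without Cyss and 2 in NRF2 against GFP cells without Cyss. In the interaction, AKR1A1 was not called with no filter (-0.21), nor were AKR1A1 (-0.21) and AKR1C2 (-0.72) at an adjusted p under 0.05. With 10 counts added, the log2 ratio of AKR1C2 to AKR1A1 was 1.78 higher in NRF2 cells with Cyss and that of AKR1C1 to AKR1C2 differed by -0.54. On leaving out each library, values ranged from -0.0213 to 0.0551 for AKR1A1, -0.0128 to 0.31 for AKR1C2 and -0.32 to -0.15 for AKR1C3 in GFP cells without against with Cyss, and from -0.0227 to 0.14 for AKR1C3 in NRF2 against GFP cells without Cyss. In the interaction they ranged from -0.25 to -0.16 for AKR1A1, -0.0895 to 0.0374 for AKR1B1, -0.62 to -0.46 for AKR1B10, -0.90 to -0.59 for AKR1C2 and -0.47 to -0.30 for AKR1C3. Members called lower ranged from 1 to 2 in GFP cells and negative interactions from 3 to 6, with 3 left without the first or second library of GFP without Cyss. The cause of these changes was not tested, and only the fits that left out a library held fewer libraries.

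Scaling by library size alone turned the balance of calls over all genes in NRF2 cells without against with Cyss, to 936 higher and 1397 lower from 1176 and 887, in the interaction, to 1124 positive and 1981 negative from 1585 and 1084, and in NRF2 against GFP cells without Cyss, to 876 and 1001 from 1034 and 708, and changed no call of a member. Over all genes, DESeq2's Wald test called 90 higher and 14 lower in NRF2 against GFP cells with Cyss, against 237 and 35.

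The replicate number as a block changed no call of a member (AKR1B10 -0.76 in GFP and -1.29 in NRF2 cells without against with Cyss) and moved the counts over all genes by at most 1.21 times. Same-numbered libraries correlated at -0.161 to 0.248 after group means were removed, and from 2 to 4 of the 6 libraries of a comparison correlated best with their own number, so the numbers were not taken to pair the samples.

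Depth limits AKR1C2 most, at 24 to 38 reads per GFP library. Among the other lists, calls were lost in 46 combinations of a gene and an alternative and counts moved in 50.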
